A study of Mus musculus with 5 samples.

Results

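Fos and 9 other immediate early genes (Fosb, Fosl1, Jun, Junb, Atf3, Egr1, Egr3, Ier2 and Dusp1) were followed from mouse embryonic stem cells (ESCs) to a motor neuron culture. They were chosen by name, all 10 had a probe on the array, and each had 1 probe, among 19897 genes with a matched probe. Fos was picked because its signal was far lower on Day2 than in ESCs, so every value set against ESCs or Day2 is a description of a pattern that helped to choose it. RNA of wild-type male cells was hybridized at 5 time points, with 1 Agilent one-colour array each. The ES array held undifferentiated ESCs, with no retinoic acid (RA) stated for it. Day2 held embryoid bodies, which are free-floating aggregates of differentiating ESCs, after 8 h of RA, Day3 held embryoid bodies after 1 day of RA, and Day4 after 2 days. The Day7 array was labelled as motor neurons after 5 days of RA, and its tissue entry was again embryoid bodies, so it measured a whole culture. The labels name Shh as the second inducer, given with RA from day 2 to day 5, which does not match the 5 days of RA given for Day7, whereas the study's text names the smoothened agonist SAG, and no array held untreated embryoid bodies of the same age. With no replicates, no spread between cultures is known, no test was possible, and a 2-fold difference between arrays served as a fixed rule of size.

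Immediate early genes are transcribed within minutes of a growth factor, cytokine or stress signal, without new protein synthesis, and their mRNAs are short-lived. Growth factor signals reach many of them through the MAP kinase ERK and the serum response factor SRF with its ternary complex partners, and calcium and cAMP signals through CREB at the cAMP response element (CRE). Fos, Fosb and Fosl1 encode Fos-family proteins, which bind DNA as AP-1 only when paired with a Jun-family protein such as those encoded by Jun and Junb. Atf3 encodes a related basic leucine zipper factor of the stress response, Egr1 and Egr3 encode zinc finger factors, Ier2 encodes a nuclear protein of the same early wave, and Dusp1 encodes a phosphatase that switches MAP kinases off. In ESCs, cytokine signalling through LIF and autocrine FGF signalling through ERK are both known to be active.

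The Day2 array stood apart from the other 4. On it 86.7% of probes were well above background by the scanner's flag, against 57.5% to 65.7% on the others, and of the 96 ERCC probes, made for foreign spike-in RNA, 66.7% were well above background against 4.17% to 9.38%. Dim signals on Day2 therefore carry less certainty, and ESCs were also compared with Day3 and Day4, which leaves Day2 out of the difference though not out of the normalization. Day7 alone was on a second slide, so slide and time cannot be told apart for it. Summed marker signals followed the labels of the first and last array: the 5 ES cell markers, well above background on every array, had a summed normalized signal of 49904 in ESCs and 3989 on Day7, although Nanog was higher on Day4 (9.98 on the log2 scale) than in ESCs (9.20), whereas the 4 motor neuron markers with a probe summed to 1049 in ESCs and 64628 on Day7. The 4 motor neuron progenitor markers summed to 11938 on Day4 and to 22299, their highest, on Day7, but they did not move together. Between these arrays Nkx6-1 went from 12.73 to 14.31, Olig2 from 11.47 to 7.35 and Pax6 from 10.28 to 5.17. In that step 2 of the 4 were at least 2-fold lower and 1 was higher, beside 18.1% of all genes in each direction. All 10 RA response genes were at least 2-fold higher on Day2 than in ESCs, beside 10.7% of all genes.

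The 250 bases upstream of the transcript start were read from RefSeq windows of build GRCm38.p6, which were held for 6 of the 10 genes (Fos, Fosb, Jun, Junb, Atf3 and Dusp1). Those of Fos, Fosb and Dusp1 are shown because these 3 genes were lower than in ESCs on Day2, Day3 and Day4 alike, and because their windows held the matches described next. Capitals mark letter matches: TGACG, the first part of a CRE, or the whole CRE TGACGTCA, the TATA box TATAAA, and the EGR site GCGGGGGCG.
Fos, chr12:85473640-85473889, plus strand: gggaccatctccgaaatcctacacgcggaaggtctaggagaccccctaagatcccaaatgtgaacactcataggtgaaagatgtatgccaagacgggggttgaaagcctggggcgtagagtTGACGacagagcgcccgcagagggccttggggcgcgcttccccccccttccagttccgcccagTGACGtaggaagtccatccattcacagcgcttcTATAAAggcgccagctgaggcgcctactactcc
Fosb, chr7:19310046-19310295, minus strand: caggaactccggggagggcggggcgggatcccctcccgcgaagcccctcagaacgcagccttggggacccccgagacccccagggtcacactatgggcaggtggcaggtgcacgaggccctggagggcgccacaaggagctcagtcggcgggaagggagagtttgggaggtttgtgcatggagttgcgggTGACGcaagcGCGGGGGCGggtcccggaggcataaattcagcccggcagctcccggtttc
Dusp1, chr17:26508473-26508722, minus strand: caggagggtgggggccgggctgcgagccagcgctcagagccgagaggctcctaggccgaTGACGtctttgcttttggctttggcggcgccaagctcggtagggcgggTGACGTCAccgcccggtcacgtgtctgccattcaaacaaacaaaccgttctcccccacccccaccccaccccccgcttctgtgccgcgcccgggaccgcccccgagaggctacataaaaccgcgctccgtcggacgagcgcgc
The Fos window held a TATA box that began 33 bases before the start and TGACG at 129 and 66 bases before it. The Fosb window held TGACG at 60 and the EGR site at 50 bases before the start. The Dusp1 window held the whole CRE at 143 bases and a separate TGACG at 191 bases before the start.

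Searched on both strands, TGACG occurred in 5 of the 6 windows, all except that of Jun, and in 17.8% of 32851 promoter windows of the same length. The letters TGACG lie inside TGACGTCA, so a CRE match counts as both, and this shorter motif was added after the others had been searched. The whole CRE was present in 1 of the 6 windows and in 1.55% of all windows, the TATA box in 1 (12.4% of all) and the EGR site in 1 (3.06% of all). The AP-1 site TGACTCA (4.46% of all) and the CArG box bound by SRF (1.47% of all) were in none of the 6 windows, which says only that these letters were not in these bases. A letter match is no evidence that a factor binds.

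**Figure D1:**
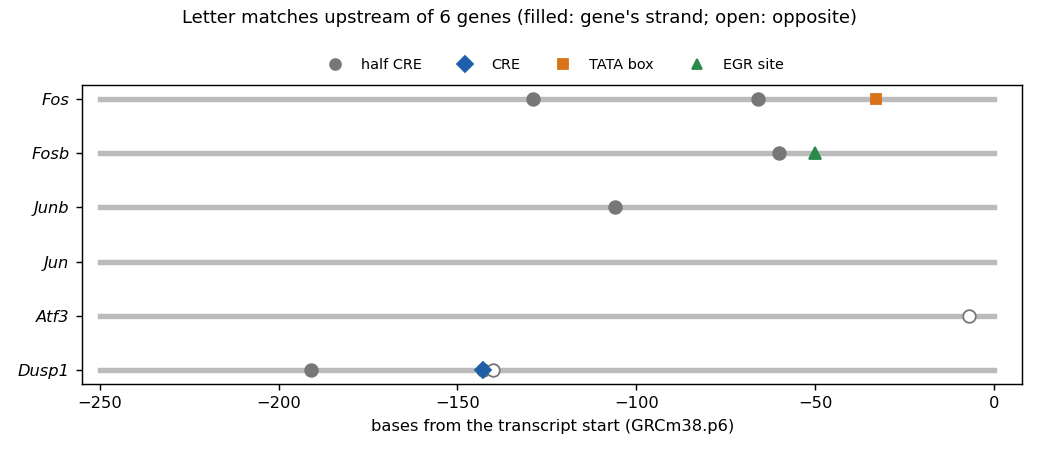
Positions of letter matches in the 250 bases upstream of 6 genes. The horizontal axis gives bases from the transcript start, each grey line is 1 window, and filled and open symbols stand for matches on the gene's own and the opposite strand. The Jun window held none of the matches drawn, and TGACG, the partial CRE of the key, was in the other 5 windows.

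Fos had its highest signal in ESCs and was near the low end of the scale 8 h after RA. Its probe was printed in 10 spots per array, which allowed an error within each array. The processed signal, in the scanner's intensity units before normalization, was 4494 in ESCs, 84.9 on Day2, 63.2 on Day3, 186 on Day4, then 333 on Day7. The spots used ranged from 4219 to 4712 in ESCs, from 74.5 to 107 on Day2 and from 54.7 to 75.4 on Day3, so no spot of Day2 or Day3 came near an ESC spot. A spot of Day3 at 199, 3 spots of Day7 and 1 spot of ESCs were marked as outliers by the scanner and left out. On the log2 scale the SD over spots ran from 0.04 on Day7 to 0.16 on Day2, which covers printing and scanning and not the culture.

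**Figure D2:**
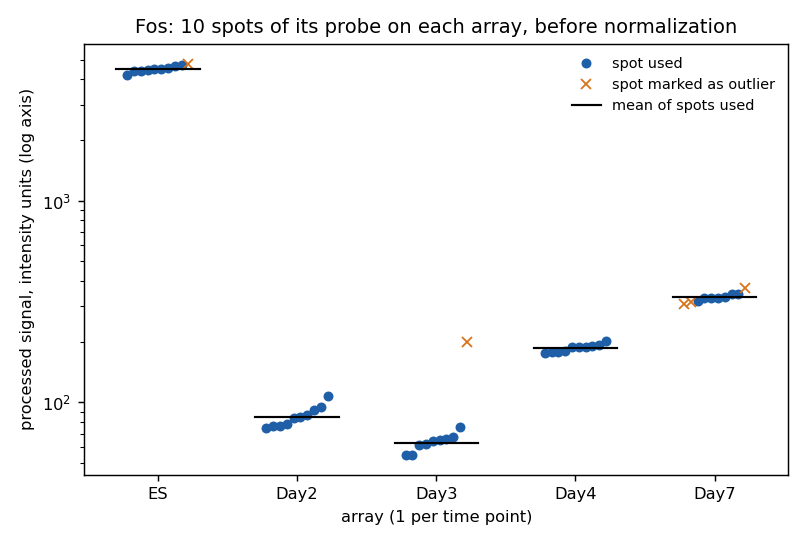
Processed signal of each of the 10 Fos spots on the 5 arrays, on a log axis and before normalization. Circles are spots used, crosses are spots marked as outliers by the scanner, and bars are the means of the spots used. The ESC spots lie between 4219 and 4792, outliers included, and the highest spot of any later array is at 371.

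After quantile normalization the Fos log2 signal was 11.75 in ESCs, 4.67 on Day2, 6.57 on Day3, 8.33 on Day4, with 7.92 on Day7. The log2 difference from ESCs to Day2 was -7.08 (135-fold lower), the lowest value among the 18316 genes with a value in that comparison. The size depended strongly on the treatment of the signal: the fold was 62.0 when arrays were aligned at their 75th percentile (the 75th percentile shift), 52.9 without normalization and 32.8 after normexp background correction. On Day2 22.9% of the ERCC probes were at least as bright as Fos, and a floor taken from the ERCC probes left Fos at least 20.5-fold lower. Set against Day3 instead, which leaves out the Day2 array, Fos was 36.3-fold lower than in ESCs by quantile normalization and 71.1-fold lower before normalization.

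From Day3 to Day4 the Fos signal went the other way, from 63.2 to 186 before normalization, with spots of Day4 between 176 and 201 and no overlap with the spots of Day3 that were used. The log2 difference was 1.77 (3.40-fold), against a spot SD of 0.14 and 0.06, and it was 2.01 with the 75th percentile shift, 1.21 after normexp and 1.56 without normalization. On Day4 Fos was still 10.7-fold below ESCs by quantile normalization and 24.2-fold before normalization. On Day7 it was 0.41 lower than on Day4 on the log2 scale, within 2-fold, and without normalization it was 0.84 higher. The difference between Day2 and Day3 has no settled direction. By quantile normalization Fos was 1.89 higher on Day3, whereas its signal before normalization was 1.34-fold lower (-0.42 on the log2 scale).

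Of the 10 genes, 6 were at least 2-fold lower on Day2 than in ESCs and 0 were higher: Fos, Fosb, Fosl1, Junb, Egr1 and Dusp1. Among all genes with a value 11.3% were at least 2-fold lower and 10.7% at least 2-fold higher in this comparison, from which nothing is read because the contrast served to choose Fos. The median log2 difference of the 10 genes was -1.44, beside 0 over all genes. These 6 genes were the same without normalization, with the 75th percentile shift and after normexp, and 5 of them remained with the floor at the ERCC probes, where Junb had no fold. On Day3, 5 of 9 genes with a value were lower than in ESCs (10.2% of all genes) and 1 was higher (15.6%), and on Day4, 4 of 9 were lower (14.4%) and 1 was higher (17%). Without normalization, where the all-gene medians were -0.63 and -1.06, 7 were lower on Day3 and 6 on Day4, and 0 were higher on either. These comparisons share the ESC array, so they are not separate evidence for a high level in ESCs.

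Fosb, the Fos-family gene known for a stable splice form in neurons, also had by far its highest signal in ESCs. Its signal before normalization was 2942 in ESCs, 170 on Day2, 62.1 on Day3, 64.0 on Day4, then 123 on Day7, so ESCs stood alone. Quantile-normalized, it was 32.3-fold lower than in ESCs on Day2, 25.7-fold on Day3, 20.6-fold on Day4 and 24.6-fold on Day7. After normexp these folds were 15.8, 14.3, 12.5 and 13.7, and with a floor from the ERCC probes Fosb was at least 14.2-fold lower on Day2. Unlike Fos, Fosb differed by only 0.31 on the log2 scale from Day3 to Day4. With the 75th percentile shift this difference was 0.50, and without normalization 0.04. Whether Fos and Fosb truly differed there could not be tested with 1 array each.

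Fosl1, which encodes Fra-1, was seen mainly in ESCs. Its signal was 371 in ESCs, 87.4 on Day2, 21.3 on Day3, 24.7 on Day4, with 16.4 on Day7, and it was not well above background on Day3 and Day7. It was 7.20-fold lower on Day4 than in ESCs, at least 9.11-fold lower on Day3 and at least 13.5-fold lower on Day7, where the bounds use the lowest signal the scanner flagged as well above background. They depend on the processing: after normexp they were 4.31-fold and 4.72-fold, and with a floor from the ERCC probes that for Day7 was 11.2-fold. On Day2 its difference from ESCs was -3.66, with a bound of -1.02 by the ERCC floor. Fos, Fosb and Fosl1 each had their highest signal in ESCs with quantile normalization, the 75th percentile shift, normexp and no normalization, and of these 3 genes only Fos passed 2-fold in the step from Day3 to Day4.

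Jun took another course. Jun, whose protein pairs with the Fos family, had a signal of 9035 in ESCs, 7106 on Day2, 3871 on Day3, 4740 on Day4, then 28836 on Day7, so that Day7 was the highest. From ESCs to Day2 its log2 difference was -0.23, against a scanner error of 0.14 for each value. On Day7 Jun was higher than on Day4 by 1.56 (2.95-fold), with values of 1.29 to 2.60 over the treatments of the signal, and it was 3.86-fold higher than in ESCs, or 2.49-fold with the 75th percentile shift. Junb was dim throughout, and its signal before normalization was highest in ESCs: 141 there, 58.9 on Day2, 51.5 on Day3, 60.5 on Day4, with 11.6 on Day7, where it was not well above background. Its bound from Day4 to Day7 was 4.37-fold lower, or 3.62-fold with a floor from the ERCC probes, 2.30-fold without normalization and 2.18-fold after normexp. Its fold of 9.23 from ESCs to Day2 shrank to 2.81 with the 75th percentile shift and to 2.36 after normexp, and on Day3 and Day4 it was within 2-fold of ESCs by quantile normalization.

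Atf3 took another course than Fos. Its signal was 1181 in ESCs, 1457 on Day2, 2035 on Day3, 1734 on Day4, then 345 on Day7, highest on Day3, whereas by quantile normalization, the 75th percentile shift and normexp it was highest on Day4. By quantile normalization Atf3 was 1.31 higher on Day3 than in ESCs on the log2 scale and 1.56 higher on Day4. Without normalization these differences were 0.79 and 0.55, both within 2-fold. On Day7 Atf3 was 12.1-fold lower than on Day4 (-3.60 on the log2 scale), the 62nd lowest value among 16082 genes, with -3.65 with the 75th percentile shift and -2.33 without normalization.

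**Figure D3:**
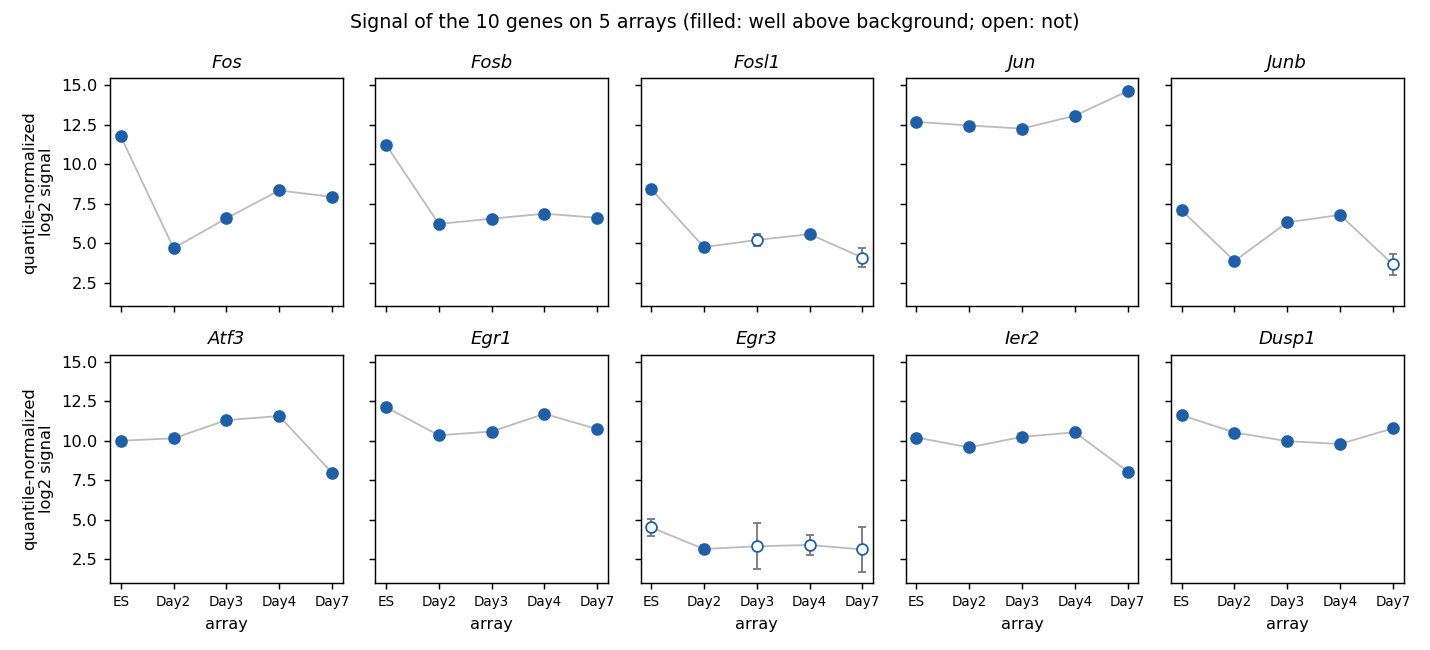
Quantile-normalized log2 signal of the 10 genes on the ES, Day2, Day3, Day4 and Day7 arrays. Filled circles were well above background and open circles were not, and the bars are the scanner's error of 1 spot, not a spread between cultures. Fos, Fosb and Fosl1 are highest in ESCs, Jun is highest on Day7, and Atf3 and Ier2 are lowest on Day7. Levels are not comparable between panels, because probes differ in brightness.

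Among the EGR genes, Egr1 was lower on Day2 and Day3 than in ESCs but stayed bright. Its signal was 5968 in ESCs, 1657 on Day2, 1234 on Day3, 1898 on Day4, with 2396 on Day7. It was 3.44-fold lower on Day2 than in ESCs and 2.91-fold lower on Day3, and on Day4 it was within 2-fold of ESCs (-0.42), except without normalization (-1.65). From Day3 to Day4 it was higher by 1.12 on the log2 scale, the only other gene of the 10 besides Fos past 2-fold in that step, although without normalization the difference was 0.62. Egr3 was well above background only on Day2, with a signal of 38.0, where 66.7% of the ERCC probes were flagged as well, so no fold could be given. The 5 corepressors and partners of EGR proteins listed held 0 genes past 2-fold in either direction from ESCs to Day2. Among all genes 11.3% were lower and 10.7% higher, so with 5 genes little is read from this, and under the alternatives up to 1 was higher.

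Ier2 stayed within 2-fold until Day4, with signals of 1372, 1012, 970 and 855 in ESCs and on Day2, Day3 and Day4, and was at 368 on Day7. It was 5.59-fold lower on Day7 than on Day4 by quantile normalization and 2.32-fold lower without normalization. Dusp1, the MAP kinase phosphatase, was lower on each array up to Day4 and higher on the last: 4039 in ESCs, 1863 on Day2, 804 on Day3, 515 on Day4, then 2489 on Day7. It was 2.14-fold lower than in ESCs on Day2, 3.13-fold on Day3 and 3.54-fold on Day4. The log2 difference between Day4 and Day7 was 0.99, just within 2-fold, and without normalization it was 2.27. The lowest level of Dusp1 was that of Day4 with each of the 4 treatments of the signal.

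The steps without the ESC array read as follows. From Day2 to Day3, 3 of 10 genes were at least 2-fold higher (13% of all genes) and 0 were lower (7.76%). The 3 were Fos, Junb and Atf3, of which Atf3 alone also passed 2-fold with the 75th percentile shift and after normexp. From Day3 to Day4, 2 of 9 genes with a value were higher, Fos and Egr1, against 3.62% of all genes, and 0 were lower, against 4.87%. From Day4 to Day7, 3 of 9 genes were lower, Junb, Ier2 and Atf3, and 1 was higher, Jun, against 18.1% of all genes in each direction. The median of the genes in this step was -0.90, beside -0.12 over all genes, and its sign turned without normalization (0.34, beside 1.06). From ESCs to Day7, 7 of 9 genes were lower (24.4% of all) and 1 was higher (24.8%), with a median of -2.15 beside -0.07 over all genes.

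**Figure D4:**
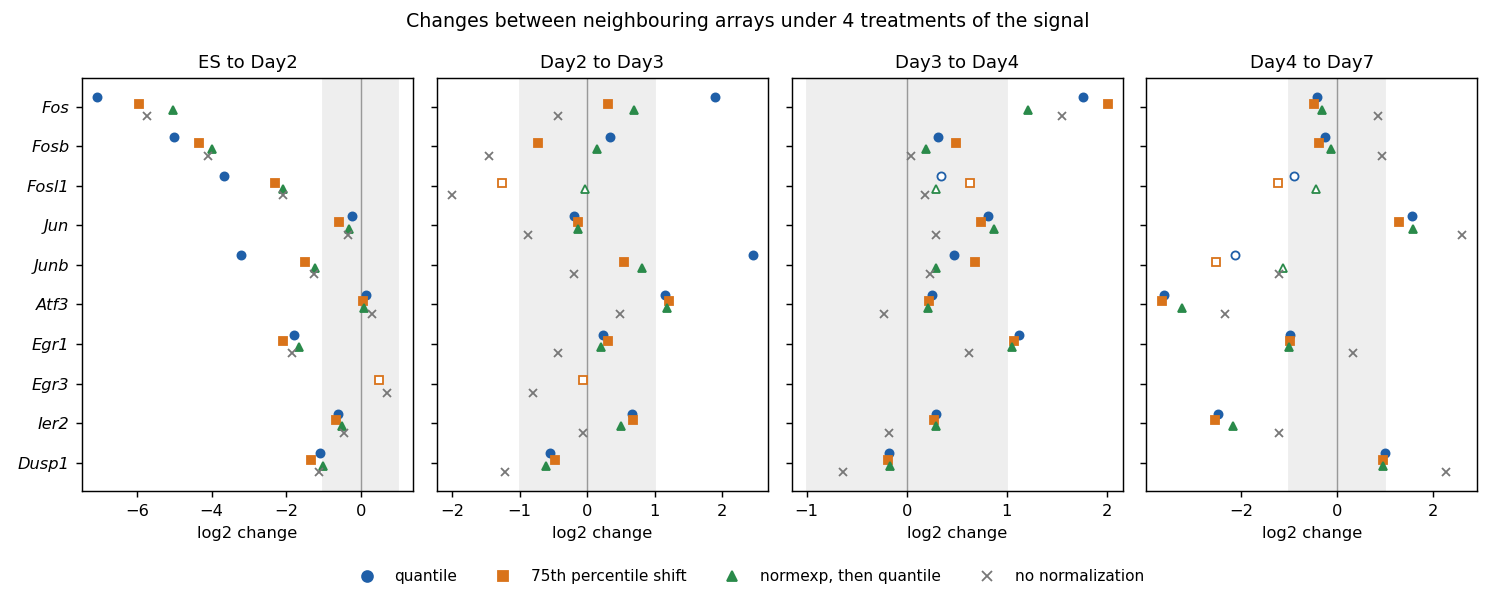
Log2 differences of the 10 genes between neighbouring arrays under 4 treatments of the signal, later minus earlier array, with the grey band marking changes under 2-fold. Open symbols are bounds, where the gene was not well above background on 1 array, and genes with no fold are left out. Fos and Junb lie above 1 from Day2 to Day3 only by quantile normalization, whereas Fos from ESCs to Day2 lies below -5 and Atf3 from Day4 to Day7 below -2 in each case.

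Markers of neurons and of fibroblasts moved over the same arrays. From Day4 to Day7 all 4 neuron markers were at least 2-fold higher, beside 18.1% of all genes, and their summed normalized signal went from 7190 to 190729. Of 10 markers of fibroblasts or feeder cells, 6 were well above background in ESCs, 8 on Day2, 7 on Day3, 8 on Day4, with 10 on Day7, with summed signals of 3570, 2528, 5160, 20407 and 11973. The lower sum on Day7 does not stand for the list. Acta2 was at 13.89 on Day4 and 10.39 on Day7 on the log2 scale. From Day4 to Day7, 4 of the 10 were at least 2-fold higher and 1, Acta2, was lower, with a median of 0.48, beside 18.1% of all genes in each direction. In ESCs Lum, Postn, Pdgfra and Pdgfrb were not well above background, while Thy1 had its highest log2 signal there (10.99, and 7.19 on Day4) and Col1a1 (8.31), Col1a2 (7.88), Col3a1 (5.69), Dcn (9.08) and Acta2 (8.49) were well above background. Their part in the values of the 10 genes was not tested, and in whole cultures fewer cells of a type and less RNA per cell cannot be told apart.

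Of 42 other immediate early genes with a value (43 listed), 13 were at least 2-fold lower on Day2 than in ESCs and 1 was higher, beside 11.3% lower and 10.7% higher among all genes, with a median of -0.75 beside 0 over all genes, and the lower ones numbered 20 with the 75th percentile shift and 10 after normexp. Those with the largest measured differences were Egr4 (-3.47 on the log2 scale) and Egr2 (-3.45), EGR factors like Egr1. They were followed by Zfp36 (-2.67), which encodes an RNA-binding protein that destabilizes mRNAs, Arc (-2.16), a gene of synaptic activity, Ier3 (-2.09) and Nr4a1 (-1.40), an orphan nuclear receptor. The sign of these 6 was negative under each alternative, and in the mildest Egr2 was at -0.98 and Zfp36 at -0.72. The only gene of this list that was higher was Ier5l (1.85), and Ptgs2, not well above background on Day2, had a bound of -5.13, which was -1.97 after normexp and -0.45, within 2-fold, by the ERCC floor. On Day3, which leaves out the Day2 array, Egr4 was at -4.11, Arc at -2.43, Nr4a1 at -1.84 and Zfp36 at -1.28, Egr2 had a bound of -3.15, and Ier3 (-0.91) was within 2-fold. In that comparison 16 of the 42 were lower and 5 higher, beside 10.2% and 15.6% of all genes. After normexp 13 were lower, and without normalization 26 were lower and 3 higher.

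In the last step, Day4 to Day7, the other immediate early genes went both ways, with 7 of 42 at least 2-fold higher and 14 lower, beside 18.1% of all genes in each direction, and a median of -0.48 beside -0.12. Without normalization, where the median of all genes was 1.06, 18 were higher and 2 lower. The highest were Rgs2 (4.85), a regulator of G protein signalling, and Nr4a2 (3.21), a nuclear receptor related to Nr4a1. Others past 2-fold upward included Plk2 (1.31), a kinase, and Arc (1.22), while Egr4 (-1.83) and Nr4a1 (-1.41) were lower together with Atf3 and Ier2. Activity-regulated late genes are those that neurons are known to transcribe after the early wave. From ESCs to Day2, 5 of 10 were at least 2-fold lower, Inhba (-3.15), Penk (-2.36), Bdnf (-1.60), Vgf (-1.44) and Nptx2 (-1.10), and 2 were higher, beside 11.3% and 10.7% of all genes, with a median of -0.73. Of these 5 only Penk and Vgf also passed 2-fold without normalization, with the 75th percentile shift and after normexp. From ESCs to Day4, 6 of 8 with a value were lower and 1 was higher, beside 14.4% and 17% of all genes. From Day4 to Day7, 5 of 9 with a value were at least 2-fold higher and 0 lower, beside 18.1% of all genes in each direction, among them Sst (4.87), Pcsk1 (3.56) and Vgf (3.34), which encode a neuropeptide, a prohormone protease and a secreted neuronal protein. The other two, Scg2 and Nrn1, were not well above background on Day4, and their lower bounds were 8.27 and 6.29. None of Fos, Fosb and Fosl1 passed 2-fold upward in that step.

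The remaining AP-1 and related factors, like the lists that follow, are read beside the 11.3% of all genes lower and 10.7% higher from ESCs to Day2. Of 16 with a value, 3 were at least 2-fold lower on Day2 than in ESCs and 1, Jdp2 (1.04), was higher, beside a median of 0.00. Maff (-2.45) lay between -2.45 and -2.10 under the alternatives. Batf (-2.65) and Fosl2 (-1.35) were at -0.79 and -0.76 with the 75th percentile shift, so both were past 2-fold only with some treatments of the signal. Fosl2, the remaining Fos-family gene, was highest on Day4, at 1.67 above ESCs, and was higher on Day4 than on Day3 by 1.03, with 0.87 after normexp. Its difference from ESCs on Day3 was 0.63, which turned negative without normalization. Jund, the third Jun gene, was higher on Day3 than in ESCs by 1.19, with 0.27 without normalization.

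Upstream regulators are read beside the same 11.3% of all genes lower and 10.7% higher from ESCs to Day2, and they changed in both directions. Of 7 genes for SRF, ternary complex factors and MRTFs, 1 was lower from ESCs to Day2, Elk3 (-1.21, which turned to 0.41 under 1 of the alternatives), and 1 was higher, Mrtfa (1.16), with a median of 0.06. Srf itself differed by -0.15 from ESCs to Day2 and was 4.71-fold lower on Day7 than on Day4 (-2.24). In that last step 2 of the 7 were lower, beside 18.1% of all genes, and 1 without normalization, where Srf no longer passed 2-fold. The probe of Elk4, picked out after its values were seen, was 10.42 lower in that last step, but the value was -3.73 under the mildest alternative. Of 22 MAP kinases and their kinases, 4 were lower from ESCs to Day2, Rps6ka5 (-1.49), Rps6ka2 (-1.36), Map2k7 (-1.15) and Mapk11 (-1.08), and 1 was higher, Mapk12 (1.16). None of those 4 passed 2-fold after normexp. Between Day4 and Day7, 4 of these 22 were higher and 7 lower, beside 18.1% of all genes in each direction, and without normalization 11 were higher and 1 lower. Mapk13, which encodes a p38 kinase, was lowest at -4.37, and Map2k3, Mapk12, Mapk14, Rps6ka1, Rps6ka3 and Rps6ka4 lay between -1.70 and -1.13. Mapk11 was higher by 1.32. Mapk10, which encodes the neuronal Jun kinase JNK3, was higher by 6.19, and its paralogue Mapk9 was higher by 1.78. The remaining Jun kinase gene, Mapk8, was higher by 2.13, but at -0.05 under the least favourable alternative.

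Feedback genes of the MAP kinase pathway include phosphatases and targets of ERK. Of 10 other dual-specificity phosphatases, 3 were lower on Day2 than in ESCs, Dusp4 (-1.66), Dusp10 (-1.59) and Dusp5 (-1.34). The value of Dusp4 was -1.51 in the mildest alternative, that of Dusp10 was -0.67 with the 75th percentile shift, and that of Dusp5 turned positive without normalization. On Day7, 2 of the 10 were higher than on Day4, Dusp8 (3.72) and Dusp4 (2.94), and 4 were lower, Dusp5 (a bound of -3.46), Dusp9 (-2.08), Dusp14 (-1.46) and Dusp2 (-1.11), beside the same 18.1%, and without normalization 5 were higher and 1 lower. Of 9 ERK feedback targets, 3 were lower from ESCs to Day2, Spry4 (-1.67), Etv5 (-1.21) and Etv4 (-1.19), and 7 were lower from Day2 to Day3, beside 7.76% of all genes, with 5 lower by the 75th percentile shift and after normexp and 9 without normalization. From ESCs to Day3, with the Day2 array left out, 5 of the 9 were lower (8 without normalization), beside 10.2% of all genes, with a median of -2.02 beside 0.06. In that comparison Spry4 was at -3.40, Etv4 at -3.27 and Etv5 at -2.73, each with the same sign under every alternative.

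**Figure D5:**
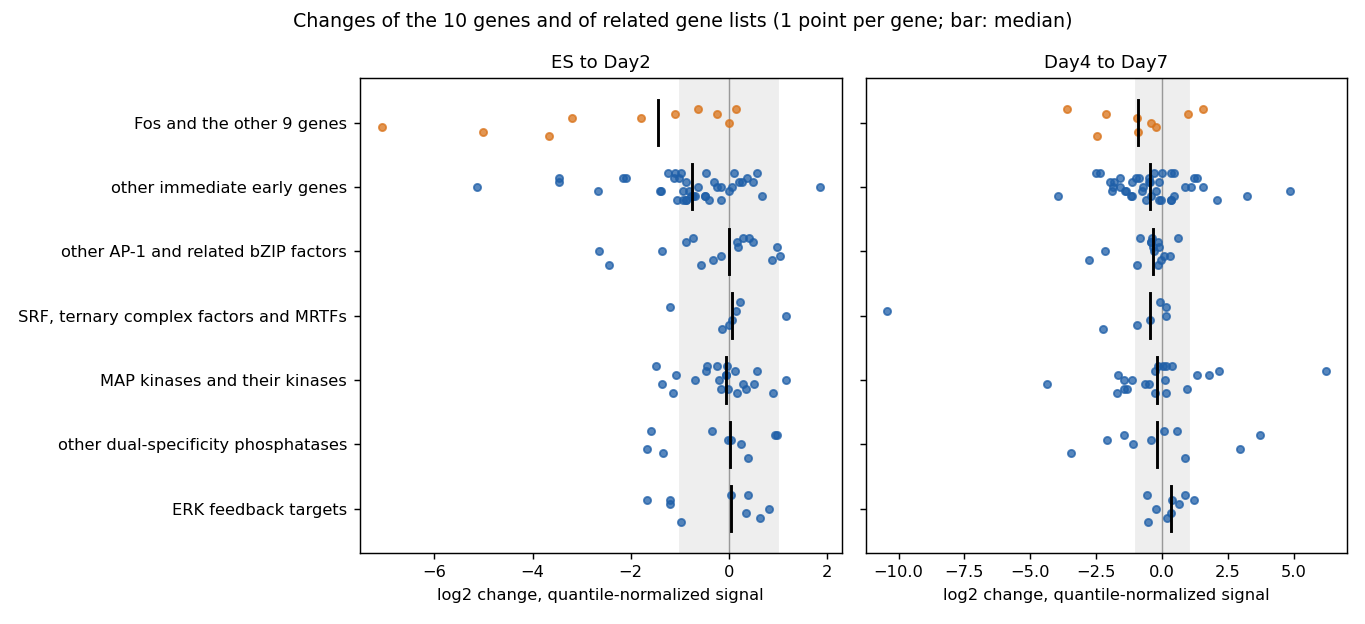
Log2 differences from ESCs to Day2 (left) and from Day4 to Day7 (right) of the 10 genes and of 6 related gene lists, with 1 point per gene and a black bar at each median. The grey band marks changes under 2-fold. From ESCs to Day2 the medians of the 10 genes and of the other immediate early genes are -1.44 and -0.75, and those of the other lists lie near 0. The point near -10 on the right is Elk4.

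The likeness of a gene to Fos was measured as the root mean square difference between log2 profiles over the 5 arrays, each centred on its own mean, among 15168 genes well above background on at least 3 arrays. The 8 nearest were Vmn2r65 (0.60), Pla2g7 (0.83), Vmn2r113 (0.84), Trim65 (0.90), Khdc3 (0.96), Ly6g6e (0.98), Glt28d2 (0.99) and Saa3 (1.06), followed in place 9 by Fosb (1.09). Of these 8, only Pla2g7, Khdc3 and Glt28d2 were well above background on all 5 arrays. The order depended on the treatment of dim signals. Khdc3 was nearest both with the 75th percentile shift and after normexp, Klf4 moved from place 18 to 3 and 2, Socs3 from 22 to 4 and 6 and Mycn from 29 to 5 in both, while Fosb was in place 8 and 3. Of the other 8 of the 10 genes, 7 were ranked, Fosl1 in place 44, Egr1 in 261, Junb in 410, Dusp1 in 1001, Ier2 in 5917, Jun in 6286 and Atf3 in 13281 by quantile normalization. With the 75th percentile shift Fosl1 was in place 160, Egr1 in 70, Junb in 5172 and Dusp1 in 264, so these places are not settled. The points of each profile share 5 arrays, and a profile is dominated by the ESC and Day2 values that chose Fos.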

How the data were processed

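Total RNA of 5 time points was hybridized to Agilent SurePrint G3 mouse arrays, 1 per time point, and read with Agilent Feature Extraction 10.5.1 per the file headers. The deposited scanner files hold the processed intensity of each spot, background-subtracted and detrended, with flags for background, saturation and outliers. No member was saturated. The authors also deposited log2 values, which matched the log2 processed signal (median over spots) minus the 75th percentile of the array within 0.01 for at least 99.3% of probes, with column medians from -3.72 to -2.62. A figure legend of the study mentions quantile analysis, which set the choice of quantile normalization here.

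Control and outlier spots were left out, log2 signals were averaged over the remaining spots of each probe, and limma 3.58.1 under R 4.3.3 equalized the quantiles. Later steps ran in Python 3.11.15 with numpy 2.4.6, pandas 2.3.3 and matplotlib 3.10.9. Probe accessions were matched to RefSeq symbols of GRCm38.p6, which gave names and no positions since the array was drawn on an older build: 26300 of 55681 probes matched, to 19897 genes. The brightest probe stood for a gene. A dim probe, meaning not well above background, took its array's lowest well-above-background value unless its own was higher, which gives a bound. A gene dim on both arrays had no value and was left out of counts and medians. Where 1 array was dim and its bound lay at or above the value of the other array, no fold was given. Such a gene entered medians as 0. Promoter windows came from RefSeq for GRCm38.p6, and no protein sequences were used. The precision is limited by 1 array per time point, and the scanner error of a single bright spot was 0.14 on the log2 scale.

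The 10 genes and all gene lists were chosen with earlier results of these data known. Besides the 10 genes, the text names list members past 2-fold in the direction of Fos from ESCs to Day2 (up to 6 of each list with the largest measured difference), up to 4 of each list with the largest rise from Day4 to Day7, and the 8 profiles nearest to Fos. Other names were chosen after their values were seen. Marker lists are given by counts and sums, and not every gene that the rule picks is reported here. Alternatives were a shift to the 75th percentile, no normalization, normexp background correction (offset 50) followed by the quantile step, the deposited log2 table, another detection flag, no floor, no dim probes, the mean over probes, and thresholds of 1.5-fold and 4-fold. A floor at the 95th percentile of the ERCC probes, keeping outlier spots, the comparisons of ESCs with Day3 and Day4 and the motif TGACG were added after seeing the data.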

Additional observations from a re-analysis of the deposited data

How the results depend on the processing

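No paired analysis was possible because there was 1 array per time point. For the same reason no array could be left out of a time point, and slide could not be fitted as a block. Comparisons of ESCs with Day3 and Day4 leave the Day2 array out of the difference, but the quantile normalization used all 5 arrays. The tallies here cover the 4 steps and ESCs to Day7, not the comparisons of ESCs with Day3 and Day4. Of the values for Fos and the counts of the 10 genes, 149 kept their side of the threshold or stayed within 1.5 times over the alternatives, 16 counts moved by more, 4 values no longer passed 2-fold and 1 reversed. Most of these lie in the step from Day2 to Day3. There the log2 change of Fos, 1.89, was 0.31 with the 75th percentile shift and with the deposited log2 table, 0.69 after normexp, 0 with the floor at the ERCC probes and -0.42 without normalization, and the changes of Fosb and Junb reversed to -1.46 and -0.19 without normalization. The count of genes raised in that step, 3, was 1 with the 75th percentile shift, normexp, the deposited table, the ERCC floor and the 4-fold threshold, and 0 without normalization. The count lowered, 0, was 1 with the 75th percentile shift and the deposited table and 3 without normalization. From Day3 to Day4 the count raised, 2, was 1 without normalization and 0 at 4-fold. From Day4 to Day7 the count lowered, 3, was 5 at 1.5-fold, and the count raised, 1, was 2 without normalization and at 1.5-fold and 0 at 4-fold, as was the count raised from ESCs to Day7 at 4-fold. The cause was not tested. Over all genes the share of changed genes that were higher on Day2 than in ESCs was 48.7%, 74.9% with the 75th percentile shift and 85.4% without normalization, and from Day2 to Day3 it was 62.6%, 25.5% and 3.48%. From Day3 to Day4 it was 42.6% and 20.1% without normalization, and from Day4 to Day7 49.9% and 94.0%. The all-gene median without normalization was 0.27, -0.81, -0.48 and 1.06 in the 4 steps. For the single genes other than Fos, 387 values were on the same side of the threshold, 13 passed it newly, 7 no longer passed it and 2 reversed. Signal over background limits Egr3 on all arrays except Day2, Fosl1 on Day3 and Day7 and Junb on Day7.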

Other observations

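Of 12 heat shock and stress genes with a probe, 0 were at least 2-fold higher on Day2 than in ESCs and 1, Ddit4 (-1.16 on the log2 scale), was lower, with a median of 0.06. Among all genes 10.7% were higher and 11.3% lower. Of 8 p53 targets, 0 passed 2-fold in either direction, beside the same shares, with a median of -0.42 beside 0 over all genes. From ESCs to Day7, 4 of the 12 stress genes were lower, Trib3 (-3.83), Chac1 (-2.11), Hspb1 (-1.94) and Hmox1 (-1.73), and 0 were higher, beside 24.4% of all genes lower and 24.8% higher. With the 75th percentile shift and without normalization 6 were lower. By quantile normalization Ddit3 was at -0.80. Between Day4 and Day7, 5 of the 8 p53 targets were at least 2-fold lower, beside 18.1% of all genes, and 0 were without normalization. Of these 5, Phlda3 (-2.15) kept its sign without normalization and the other 4 did not. The immediate early gene lowest in that step was Ccn1 (-3.95), which encodes a matricellular protein and is known as a target of YAP and SRF. Its value was -2.55 under the mildest alternative.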
